A study of Homo sapiens with 14 samples.

Results

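HPB-ALL is an established human cell line of T-cell acute lymphoblastic leukemia (T-ALL), a cancer of immature T cells. It was 1 of 7 T-ALL lines in this experiment and contributed 2 of 14 arrays, which were chosen by the cell line given in the sample labels. In 1 array the RNA came from HPB-ALL cells kept for 6 h with AS605240, which inhibits the lipid kinase PI3K, at the concentration that is the IC50 of HPB-ALL, and in the other from HPB-ALL cells given vehicle for the same time (Control). The other 12 arrays were pairs of the same design, AS605240 and Control, from ALL-SIL, CCRF-CEM, Jurkat, Molt-4, TALL-1 and P12-ICHIKAWA. All lines were T-ALL lines grown in the same medium with fetal bovine serum, and no primary cells are analysed here. HPB-ALL is a single line with 1 array per treatment, so its own spread was not measured and it was assumed to vary like the other lines.

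T-ALL cells are arrested at a stage of thymic T-cell development, and the stage can be read from surface molecules such as CD1, CD4 and CD8. Many T-ALL cases express a transcription factor that is silent in normal T cells, such as TAL1, LMO2, TLX1 or TLX3, and lose the cell cycle inhibitors encoded at the CDKN2A locus. PI3K turns on AKT and mTORC1, which support growth and metabolism and hold the FOXO transcription factors out of the nucleus, so that FOXO targets such as KLF2 are typically released when PI3K is inhibited.

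Expression was read from the brightest probe set that named a single gene, for 19775 genes, on the scale log2(signal + 16), on which the lowest possible value is 4. All levels below are on this scale, and a difference of 1 is a doubling of signal plus 16, which understates the change in signal where a gene is dim. The median signal of HPB-ALL was 36.1 with AS605240 and 34.5 with vehicle. Between HPB-ALL and the other lines, gene levels had a Pearson r of 0.908 to 0.914, within the range of 0.907 to 0.953 over all pairs except P12-ICHIKAWA and TALL-1, whose r was 0.996. Since these lines were so alike, results were also computed with both counted as 1 line. The spiked-in hybridization controls averaged 9.08 and 8.92 on the AS605240 and Control arrays of HPB-ALL, against 9.23 to 9.91 on the other arrays. For ACTB, the log2 ratio of the 3′ over the 5′ probe set differed by 0.20 between the HPB-ALL arrays, against -0.15 to 0.11 within the other lines. The ACTB ratios themselves, 0.47 with AS605240 and 0.26 with vehicle, lay inside the 0.13 to 0.63 of the other arrays. The GAPDH ratio differed by 0.057 between the HPB-ALL arrays, against -0.097 to 0.052 within the other lines.

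The T-ALL label was first set against marker genes. HPB-ALL expressed the CD3 chain CD3D at 12.15 with AS605240 and 12.42 with vehicle, against 11.41 to 12.45 on the other arrays (median 12.05), and thus within their range. BCL11B, a transcription factor needed for T-cell commitment, stood at 9.86 and 9.88 in HPB-ALL, against 9.59 to 10.74 in the other lines. Of 35 measured T-cell stage markers, 28 had a signal over 50 in HPB-ALL, against 18 to 28 in the other lines. In contrast, CD34, a marker of stem and early progenitor cells, was at 5.31 and 5.05, against 5.13 to 5.84 in the other lines.

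HPB-ALL had higher levels than all other lines of CD4, CD8 and several other markers that CD4+ CD8+ cortical thymocytes carry. CD8B, which encodes the beta chain of the CD8 co-receptor, was at 15.26 with AS605240 and 15.61 with vehicle in HPB-ALL, against a range of 4.34 to 11.29 with a median of 4.63 on the other 12 arrays. CD8A, its partner chain, was at 10.46 and 10.50, against 4.07 to 9.25 (median 5.39). CD4 was at 9.49 and 9.48, against 6.00 to 8.82 (median 7.49). In all 3 genes both HPB-ALL arrays lay above every other array on the probe set used, and the treated and untreated HPB-ALL arrays were close to each other. Other bright CD8B probe sets differed less, by 2.28 with HPB-ALL above all other arrays, and by 0.51 with overlap. The lipid antigen-presenting molecules CD1A, CD1B, CD1C and CD1E were likewise above all other arrays, with CD1E at 12.42 and 12.36 against 4.54 to 11.89, whereas CD1D, at 8.70 and 8.45, lay inside 4.56 to 10.13. CD2, CD6, CD28 and AQP3 were also above all other arrays on the probe sets used, but CD6 and AQP3 had other bright probe sets that were not. In all, 11 of 35 markers were above all 12 other arrays and none below, where 5.86% and 7.22% of all genes were. The median difference of the list, HPB-ALL minus the mean of the other lines, was 0.95, against -0.02 over all genes. None of the 35 was called. For CD8B the difference of 9.73 had an SE of 2.56 and an adjusted p of 0.24 in limma. The recombinase gene RAG1 was at 6.00 and 5.54, inside a range of 4.0 to 11.51, and DNTT, the terminal transferase, at 10.15 and 9.61, inside 5.03 to 10.46.

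**Figure D1:**
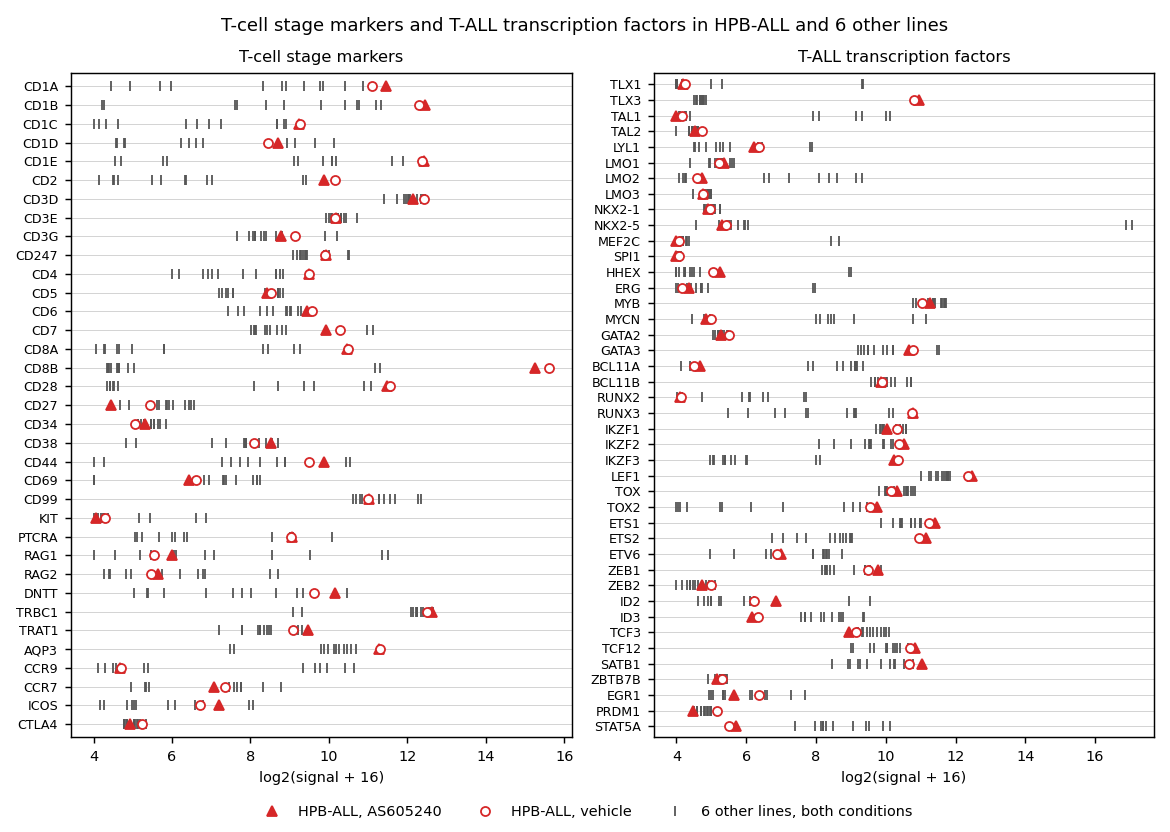
Levels, as log2(signal + 16), of T-cell stage markers and T-ALL transcription factors on the AS605240 and Control arrays of HPB-ALL and on the 12 arrays of the other lines, each point being 1 array. Both HPB-ALL points lie above every other point for CD8B, CD8A, CD4 and TLX3, whereas TAL1, TLX1 and LMO2 of HPB-ALL lie at the low end.

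Lists of other cell types gave few signals, though HPB-ALL had more B-cell markers over a signal of 50 than any other line. Over a signal of 50 in HPB-ALL were 6 of 21 cytotoxic and NK markers (3 to 8 in the other lines), 6 of 21 B-cell markers (2 to 5), 3 of 22 myeloid markers (3 to 5), 2 of 14 erythroid and megakaryocyte markers (2 to 3) and 5 of 16 epithelial and fibroblast markers (5 to 6). Their summed signals on the AS605240 and Control arrays of HPB-ALL were 1065 and 1315 for cytotoxic and NK markers (436 to 3491 on the other arrays), 2496 and 2081 for B-cell markers (311 to 2285), 1234 and 1357 for myeloid markers (2127 to 2978), 317 and 340 for erythroid and megakaryocyte markers (304 to 2549), and 4681 and 4333 for epithelial and fibroblast markers (2958 to 7291). No member of these lists was called. The defining B-cell genes MS4A1, at 4.45 and 4.64, and PAX5, at 4.29 and 4.59, were near the floor of the scale. Of the 21 B-cell markers, CR2, CD72 and BANK1 had both HPB-ALL arrays above all others, as had 5.86% of all genes, and none was below all others. The highest B-cell marker of HPB-ALL relative to the other lines was CR2, the complement receptor CD21, at 10.45 and 9.66 against 4.0 to 6.37, with a difference of 4.89 and an adjusted p of 0.057 in limma.

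Genes that set HPB-ALL apart were sought by comparing its mean over both arrays with the means of the other 6 lines in limma. A call required an adjusted p below 0.05 together with a fold above 1.5. HPB-ALL had 93 genes called higher and 99 called lower, 0.470% and 0.501% of the genes tested. Both HPB-ALL arrays were outside the range of all other arrays for 91 of the 93 and for all 99. With P12-ICHIKAWA and TALL-1 counted as 1 line, 74 and 46 genes were called, so the count of lower genes depends on both of these lines being present. Since a single line was set against 6, an exact permutation test of any 1 gene cannot give a p below 0.143. By a count that needs no model, genes over 4-fold apart from the mean of the other lines with no overlap of arrays, HPB-ALL had 222 higher and 134 lower. The same count for each other line gave 152 and 49 for CCRF-CEM, 112 and 68 for Jurkat, 92 and 72 for Molt-4, 144 and 234 for ALL-SIL, 10 and 15 for P12-ICHIKAWA, and 16 and 18 for TALL-1, the near-identical lines.

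Of 42 measured T-ALL transcription factors, TLX3 was the only one called. TLX3, a homeobox factor that is silent in normal T cells and is activated by chromosomal rearrangement in a subset of T-ALL, was at 10.95 with AS605240 and 10.82 with vehicle in HPB-ALL, against 4.51 to 4.86 on the other arrays (median 4.74). The difference was 6.18. Near the floor the spread of the other lines is small, so the call in limma adds little to the levels themselves. HPB-ALL thus had a strong signal where all 12 other arrays were near the floor. The other factors of this kind were low in HPB-ALL, with TAL1 at 4.0 and 4.16 (4.07 to 10.12 on the other arrays), TLX1 at 4.19 and 4.23 (4.0 to 9.35) and LMO2 at 4.73 and 4.58 (4.06 to 9.32). With TLX3, 9 of the 42 factors had both HPB-ALL arrays above all others, as had 5.86% of all genes, among them RUNX3, which silences CD4 in cells of the CD8 lineage, at 10.79 and 10.76 against 5.49 to 10.20, and the lymphoid factors IKZF2, IKZF3, LEF1, TOX2, ETS1, ETS2 and TCF12. STAT5A, ID3 and TCF3 were below all others, as were 7.22% of all genes. STAT5A, which acts downstream of IL7 receptor signaling, was at 5.71 and 5.51 against 7.40 to 10.12, with an adjusted p of 0.21 in limma.

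CDKN2A, which encodes the cell cycle inhibitor p16 and the p53 activator ARF, was among the strongest genes of HPB-ALL. Its levels were 10.90 with AS605240 and 10.88 with vehicle, against 4.77 to 5.46 on the other arrays (median 5.08). The difference was 5.82, and another CDKN2A probe set gave a difference of 4.98. As for TLX3, the call in limma adds little to these levels. The neighbouring genes CDKN2B, at 4.52 and 4.36 (4.0 to 4.73 on the other arrays), and MTAP, at 5.30 and 5.19 (4.35 to 5.50), were not outside the other lines. Expression of CDKN2A was thus high in HPB-ALL and near the floor in all other lines, and the drug-treated and vehicle arrays differed by 0.02.

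**Figure D2:**
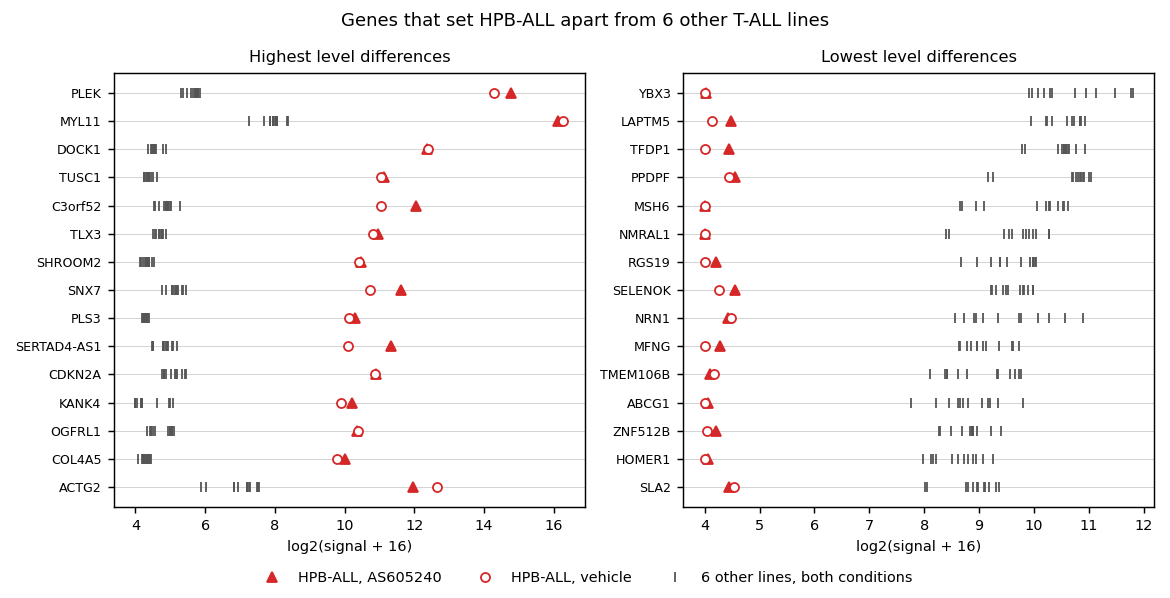
Levels, as log2(signal + 16), of the 15 genes called higher and the 15 called lower in HPB-ALL with the largest differences, on the AS605240 and Control arrays of HPB-ALL and on the 12 arrays of the other lines. The HPB-ALL points of PLEK, MYL11, TLX3 and CDKN2A lie far above all other points, and those of YBX3, LAPTM5 and MSH6 lie near the floor of 4.

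The largest differences of all were those of PLEK and MYL11. PLEK, pleckstrin, a substrate of protein kinase C in platelets and leukocytes whose pleckstrin homology domains bind phosphoinositides, was at 14.77 and 14.28 in HPB-ALL, against 5.30 to 5.86 (median 5.71) on the other arrays. Its difference was 8.88, and a further PLEK probe set differed by 6.42. The other lines were dim for PLEK with a small spread, so its call also adds little to the levels. MYL11, a fast skeletal muscle myosin light chain, was at 16.11 and 16.27, against 7.25 to 8.37 (median 7.98), a difference of 8.24. Both genes were thus among the bright signals of HPB-ALL and dim or moderate elsewhere. Several of the other named genes encode proteins of the cytoskeleton or the matrix: DOCK1, an activator of the GTPase Rac (difference 7.82), SHROOM2, an actin-binding protein (6.12), PLS3, an actin-bundling protein (5.93), KANK4 (5.68), COL4A5, a chain of type IV collagen (5.61), and ACTG2, an actin of smooth muscle (5.30). For DOCK1 the other 4 probe sets were dim and differed by -0.34 to 0.27. Dim other probe sets of ACTG2, COL4A5 and C3orf52 likewise differed little, by -0.04, -0.03 and 0.08. The remaining named genes, TUSC1, C3orf52, SNX7, SERTAD4-AS1 and OGFRL1, differed by 5.63 to 6.71.

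Genes of immune signaling were also among the 93; they were picked out after their values had been seen. CX3CR1, the receptor of the chemokine fractalkine, was at 9.09 and 9.04 in HPB-ALL, against 4.0 to 5.12. NFKB2, which encodes the precursor p100 of the noncanonical NF-κB pathway, was at 9.42 and 8.84 against 6.39 to 6.98, and NFKBIZ, an NF-κB-induced nuclear regulator, at 8.89 and 8.08 against 4.25 to 5.71. Both NF-κB genes had the higher of the paired HPB-ALL values on the treated array. FGR, a SRC family kinase, SLAMF1, an immune cell co-receptor, SPIB, an ETS factor of B and dendritic cells, TLR5, the flagellin receptor, and IL4, a type 2 cytokine, were called with differences of 4.01, 3.13, 3.37, 2.72 and 1.36. Close to the threshold stood IL7R, the IL7 receptor, at 10.37 and 10.08 against 4.01 to 6.85 (difference 5.33, adjusted p = 0.098, limma), and IL21R (2.02, adjusted p = 0.057). Of 36 genes of cytokine receptors and JAK-STAT signaling, 9 were above all other arrays and 4 below, where 5.86% and 7.22% of all genes were, and none was called.

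Among the genes called lower, many were at the floor in HPB-ALL. YBX3, a cold shock domain protein that binds DNA and RNA, was at 4.03 with AS605240 and 4.0 with vehicle, against 9.91 to 11.79 (median 10.53) on the other arrays, a difference of -6.70 (SE 0.68; adjusted p = 0.0088, limma). LAPTM5, a lysosomal protein that lowers T-cell receptor levels at the cell surface, was at 4.49 and 4.14 against 9.94 to 10.93 (median 10.72), a difference of -6.27, and its other probe set differed by -5.33. SLA2, an adaptor that restrains T-cell receptor signaling, was at 4.44 and 4.54 against 8.0 to 9.36, a difference of -4.38. HPB-ALL thus lacked signal for both of these negative regulators of the T-cell receptor. TFDP1, the partner of E2F factors (-6.26), MFNG, a glycosyltransferase that modifies Notch (-4.97), ABCG1, a cholesterol exporter (-4.77), and SELENOK, a selenoprotein of the endoplasmic reticulum (-5.21), were low in the same way, as were PPDPF, NMRAL1, RGS19, NRN1, TMEM106B, ZNF512B and HOMER1, with differences of -4.58 to -6.07. JUNB, an AP-1 subunit (-3.84), and GADD45B, a stress-induced growth arrest gene (-3.05), were called lower as well.

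MSH6, which recognizes base mismatches for DNA repair, and its neighbour FBXO11 had almost no signal in HPB-ALL. The deposited signals of MSH6 were 0.0058 with AS605240 and 0.021 with vehicle in HPB-ALL, against 384 to 1552 on the other arrays, and those of FBXO11, a substrate receptor of a ubiquitin ligase, were 0.0026 and 0.0021 against 132 to 452. These genes follow each other on chromosome 2 among the genes over a signal of 100 in all other lines. On the log2 scale MSH6 differed by -5.86 (adjusted p = 0.025, limma). A further bright MSH6 probe set differed by -4.92. Genes of this kind, with a signal under 10 on both HPB-ALL arrays and over 100 on all others, numbered 29, against 36 for ALL-SIL, 8 for Jurkat, 5 for Molt-4, 1 for CCRF-CEM and none for P12-ICHIKAWA or TALL-1. Apart from MSH6 and FBXO11, only GSTM2 and GSTM1, glutathione transferases with closely related sequences whose signals may be shared between their probe sets, were such neighbours. Another 4, SLCO4A1, PPDPF, ZNF512B and RGS19, lay at places 164 to 181 of 183 such genes along chromosome 20, with genes of normal signal between them.

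Other probe sets of the called genes were examined, since a single probe set can fail. Of the 93 genes called higher, 25 had another probe set over a signal of 50, and in 24 of these it was outside the other lines in the same direction. Of the 99 called lower, 49 had one, and in 47 it was outside in the same direction. For the other genes the call rests on 1 probe set. Among the genes called higher, this agreement was partly fixed by the signal filter. Where the other lines were near the floor, another probe set could pass it only through HPB-ALL. Dimmer probe sets were not counted.

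The genes low in HPB-ALL were not spread evenly over the genome. Of 605 genes on chromosome 3 with a signal over 50 on at least 2 arrays, 169 (27.9%) were below all other arrays and 21 were called lower. On chromosome 16 the numbers were 170 of 502 (33.9%) and 15. Over the whole genome, 10.4% of such genes were below all others and 98 were called. The median difference was -0.25 on chromosome 3 and -0.39 on chromosome 16, against -0.02 over all of these genes. Above all other arrays were 42 genes (6.94%) on chromosome 3 and 61 (12.2%) on chromosome 16, against 8.60% over the whole genome.

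Within each chromosome the low genes formed contiguous stretches. In a running median over 50 neighbouring genes, a threshold of 0.5 was set after the data had been seen. On chromosome 3 the median of HPB-ALL was below -0.5 in windows that covered the first 295 of 605 genes, between TRNT1 and CPOX, and reached -1.10. Over the same windows the other lines were between -0.22 and 0.34. All 21 called lower genes of chromosome 3 lay in this stretch, among them SELENOK, XPC, which recognizes damaged DNA, and SCAP, the escort of the SREBP factors of cholesterol synthesis. SCAP was at 7.18 and 7.19 against 8.18 to 8.66, and XPC at 6.02 and 5.72 against 7.06 to 7.97. Altogether 154 of the 295 genes were below all other arrays. Their median difference was -0.78, whereas their median change with AS605240 in HPB-ALL was 0.06.

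On chromosome 16 the first 150 of 502 genes, between POLR3K and BMERB1, formed a stretch with a lowest median of -0.95, and 82 of the 150 were below all other arrays. Windows farther along the same chromosome, between FBRS and NPIPB15, reached -0.80. On both chromosomes the other lines stayed above -0.22 over the windows concerned. A stretch on chromosome 2 (SUPT7L to REL, lowest median -0.73), which holds MSH6 and FBXO11, and a stretch on chromosome 17 (ZFP3 to TMEM238L, -0.55) were also low, but there another line was low too, down to -0.54 on chromosome 2 and -0.79 on chromosome 17. A stretch of chromosome 10 that includes GATA3 was higher in HPB-ALL, with a highest median of 0.54. However, P12-ICHIKAWA and TALL-1 were low in overlapping stretches there, down to -0.75 and -0.69, which lowers the mean set against HPB-ALL. Another line reached 0.39 over the same windows. Other lines also had stretches of this kind elsewhere. Summed over overlapping stretches, the lower ones held 826 genes in HPB-ALL, 703 in P12-ICHIKAWA, 606 in Molt-4, 548 in TALL-1, 446 in ALL-SIL, 151 in Jurkat and 50 in CCRF-CEM.

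**Figure D3:**
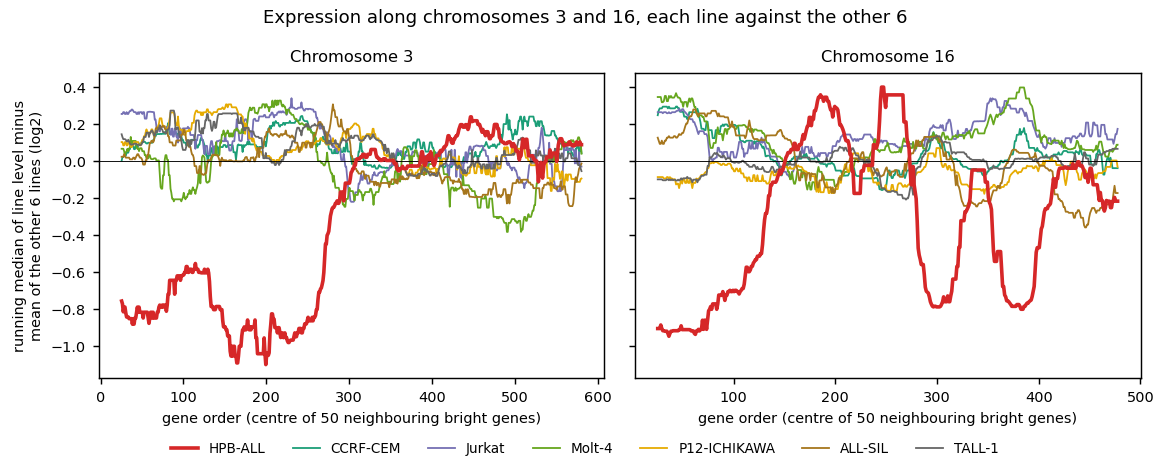
Running median over 50 neighbouring genes of the difference in log2(signal + 16) between each line and the mean of the other lines, against the order of genes along chromosomes 3 and 16, with 1 line per cell line and HPB-ALL drawn thick. HPB-ALL reaches -1.10 on chromosome 3 and -0.95 on chromosome 16, in stretches where every other line stays above -0.22.

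In the identity comparison 0.470% of all genes were called higher and 0.501% lower, so that a list of 18 to 42 genes would hold few calls or none by its size alone. Both HPB-ALL arrays were above all other arrays in 5.86% of all genes and below them in 7.22%, or below in 10.4% of the genes with a signal over 50 on at least 2 arrays. The T-cell receptor signaling list had 1 of 34 members called, SLA2, with 9 below all other arrays and 2 above. The chemokine receptor and adhesion list had CX3CR1 called of 35, with 8 below all others, among them SELPLG and ICAM3. The list of cell cycle inhibitors, cyclins and p53 targets had CDKN2A called higher and GADD45B and XPC called lower of 34. In folate and asparagine metabolism 1 of 29 was called, SLC38A1, a glutamine transporter, which was at 8.14 and 7.72 against 9.93 to 10.98 (difference -2.56, adjusted p = 0.021, limma). No member was called of 36 genes of the PI3K and AKT pathway, of 30 Notch receptors and direct targets, of 31 BCL2 family and apoptosis genes, of 18 genes of the glucocorticoid receptor and its targets, of 26 HLA and antigen presentation genes or of 35 interferon response genes. INPP5D, the 5-phosphatase SHIP1 that opposes PI3K, was at 9.74 and 9.51 in HPB-ALL, against 6.46 to 8.48, with both HPB-ALL arrays above all others, but was not called. NOTCH1 was at 9.67 and 9.56, inside 8.16 to 10.21, and MYC at 10.88 and 11.11, inside 10.25 to 11.51. Of 42 G1/S and DNA replication genes, 13 were below all other arrays and 2 above, with a median difference of -0.19.

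The response of HPB-ALL to AS605240 was then examined, first against the genes that respond in the other lines. A paired limma analysis of the other 6 lines, with the cell line as a block, called 121 genes lower and 231 higher with AS605240, 0.612% and 1.17% of the genes tested. This comparison used no HPB-ALL array. In HPB-ALL, 116 of the 121 were lower and 221 of the 231 higher on the treated array, in all 337 of 352 (95.7%). When each other line was set in the same way against the 6 remaining lines, the share was 96.9% to 98.9%. The changes of HPB-ALL were smaller: their slope, set against the mean of the other lines, was 0.746, where 1 means a response of the same size, with 0.690 for lower and 0.774 for higher genes. The slope of the other lines, each against the 6 remaining, was 0.604 for CCRF-CEM, 0.811 for ALL-SIL, 0.912 for Jurkat, 1.06 for Molt-4, 1.12 for TALL-1 and 1.16 for P12-ICHIKAWA. Of the other lines only CCRF-CEM had a lower slope than HPB-ALL. The 6 lines set against P12-ICHIKAWA or TALL-1 held the near-identical other line, so the shares and slopes of this pair are not fully independent. Each line received AS605240 at its own IC50 concentration.

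**Figure D4:**
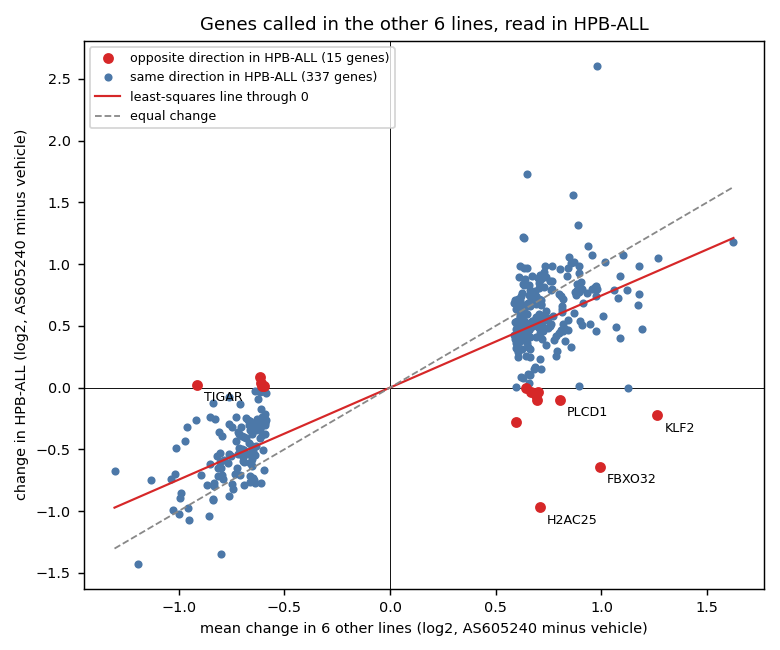
Change with AS605240 in HPB-ALL, in log2(signal + 16) of the treated minus the Control array, against the mean change of the other 6 lines, for the 352 genes called in those lines, with the 15 genes of opposite sign in red, the least-squares line through 0 and a dashed line of equal change. The fitted slope is 0.746 and 337 of the points have the same sign on both axes.

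Lists that move with PI3K inhibition had a lower median on the treated array in HPB-ALL too, in or at the edge of the range of the other lines. Of 83 ribosome biogenesis genes, 21 were called lower in the other lines. In HPB-ALL 74 of the 83 were lower on the treated array, with a median change of -0.33, against -0.57 to -0.19 in the other lines. Myc targets outside ribosome biogenesis had a median change of -0.20 (34 of 37 lower), against -0.39 to -0.20, while MYC itself changed by -0.23 in HPB-ALL and by -0.11 to 0.09 in the other lines (adjusted p of the difference 0.85, limma). The cholesterol synthesis and uptake list had a median of -0.31 (25 of 29 lower), against -0.63 to -0.22, and endoplasmic reticulum chaperones of the unfolded protein response one of -0.21 (20 of 31 lower), against -0.39 to -0.15. Over all genes the median change was 0.04 in HPB-ALL and 0.00 to 0.03 in the other lines, so these medians were below that of the array as a whole. Glycolysis and HIF1 targets had a median of -0.15, against -0.45 to -0.04.

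Higher with AS605240 were FOXO targets, lysosome and autophagy genes and genes of the PI3K pathway itself. FOXO targets had a median change of 0.26 in HPB-ALL, 29 of 34 being higher, against 0.25 to 0.57 in the other lines. Lysosome and autophagy genes had a median of 0.24 (39 of 46 higher), against 0.12 to 0.25, and PI3K and AKT pathway genes one of 0.20 (27 of 36 higher), against 0.12 to 0.24. PIK3CD, the p110 delta catalytic subunit, was at 7.92 with AS605240 and 7.16 with vehicle in HPB-ALL, a change of 0.75, against changes of 0.52 to 1.24 (median 0.93) in the other lines. All 40 G2/M genes were higher on the treated array of HPB-ALL, with a median of 0.37, against 0.03 to 0.52. Interferon response genes had a median of 0.13 (24 of 35 higher), against 0.02 to 0.34.

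In some lists the median change of HPB-ALL lay above that of all other lines or at its upper end. The ATF4 amino acid response list had a median change of 0.14 in HPB-ALL, against -0.89 to 0.09 in the other lines, and 13 of its 36 genes changed by more than in every other line. For comparison, the change of HPB-ALL was above that of all 6 other lines in 20.0% of all genes and below it in 12.4%. The shares were 19 of 42 above and 1 below for G1/S and DNA replication (median 0.19, against -0.03 to 0.09), 11 of 26 and none for heat shock proteins (-0.05, against -0.26 to -0.16), 21 of 74 and 1 for the mitochondrial ribosome (-0.08, against -0.30 to -0.13), 11 of 31 and none for BCL2 family and apoptosis genes (0.22, against -0.01 to 0.20), and 22 of 52 and 1 for cytosolic ribosomal proteins (0.07, against -0.09 to 0.07). FOXO targets went the other way, with 1 of 34 above and 7 below. No member of these lists had a called difference in response. PMAIP1, the BH3-only protein NOXA, was at 11.60 with AS605240 and 11.15 with vehicle, a change of 0.45, against -0.90 to 0.10 in the other lines (adjusted p of the difference 0.57, limma), and JUN changed by 0.59, against -0.63 to 0.18 (adjusted p = 0.40). The other JUN probe sets disagreed, since 2 changed by 0.37 and 0.80 in HPB-ALL and 1 by -0.94, the last below the -0.39 to 0.12 of the other lines. The differences of these lists thus stand as small shifts shared by many genes, measured on 1 pair of arrays.

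Of the other lists, that of cell cycle inhibitors, cyclins and p53 targets also had a median change above all other lines, 0.23 against 0.06 to 0.20, with 6 of 34 genes above and 3 below. Folate and asparagine metabolism, at 0.01 (-0.21 to 0.00), was above by a small margin, and antigen presentation and HLA, at -0.03 (0.01 to 0.11), was below. Further lists lay inside the range of the other lines. The median change in HPB-ALL was -0.01 for T-ALL transcription factors (-0.02 to 0.14 in the other lines), 0.01 for T-cell stage markers (-0.03 to 0.16), 0.03 for T-cell receptor signaling (-0.04 to 0.22), 0.12 for cytokine receptors and JAK-STAT (0.05 to 0.21), 0.09 for Notch receptors and direct targets (-0.05 to 0.14), 0.16 for the glucocorticoid receptor and induced genes (-0.08 to 0.20), -0.02 for immediate early and ERK output (-0.18 to 0.09) and 0.00 for chemokine receptors and adhesion (-0.02 to 0.11).

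The 15 genes of opposite sign in HPB-ALL included KLF2, FBXO32, TIGAR and H2AC25. KLF2, a FOXO target that drives expression of T-cell trafficking receptors, was at 7.28 with AS605240 and 7.51 with vehicle in HPB-ALL, a change of -0.22, whereas it changed by 0.30 to 1.71 (median 1.43) in the other lines. FBXO32, the FOXO-induced ubiquitin ligase subunit atrogin-1, was at 4.05 and 4.69, a change of -0.64 near the floor, against 0.28 to 1.70 (median 0.99). Its opposite sign rests on this probe set, since the other FBXO32 probe set with a signal over 50 on at least 2 arrays changed by 0.26 in HPB-ALL, against 0.39 to 1.23. TIGAR, a fructose bisphosphatase that lowers glycolysis, was at 6.59 and 6.56, a change of 0.02, against -1.13 to -0.52 (median -0.96). In each of these genes HPB-ALL lay outside the range of the other 6 changes, yet none of the 15 differences was called: adjusted p was 0.46 for KLF2, 0.46 for FBXO32, 0.26 for TIGAR and 0.34 for H2AC25 in limma. H2AC25, a histone H2A gene, changed by -0.97, against 0.10 to 1.65. SLC7A5, the large neutral amino acid transporter, changed by 0.01 at a level of 10.6 on both arrays, against -0.99 to -0.12. The other 10 were PLCD1, LY9, CD84, SLFN5, GPA33, CSGALNACT1, NAF1, PDK2, GDF10 and RGS16, whose changes in HPB-ALL were between -0.28 and 0.09.

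The difference in response between HPB-ALL and the other lines was tested for all genes in limma. The change of HPB-ALL was called higher than that of the other lines for 24 genes (0.121%) and lower for 7 (0.0354%). At an unadjusted p under 0.05 the numbers were 804 and 496. Of the 31 called genes, 10 higher and 4 lower had a signal over 50 on at least 2 arrays. Without the cell line as a block, 4 genes were called higher and none lower. A change of more than 1 on the log2 scale outside the range of the other lines was seen in 18 genes upward and 9 downward. TUBA4A, SERTAD4 and other genes with a called difference are described one at a time below, each resting on 1 AS605240 array and 1 Control array of HPB-ALL.

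TUBA4A, an alpha-tubulin, had the largest called difference among genes with such a signal. It was at 9.34 with AS605240 and 5.66 with vehicle in HPB-ALL, a change of 3.69, against changes of -0.53 to 0.18 (median -0.29) in the other lines. The difference of 3.94 (SE 0.23) had an adjusted p of 2.89e-06 in limma. On the other arrays TUBA4A was between 8.99 and 12.08, so the vehicle array of HPB-ALL lay below all of them and the treated array close to their median of 9.37. TUBA4A had a single probe set.

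**Figure D5:**
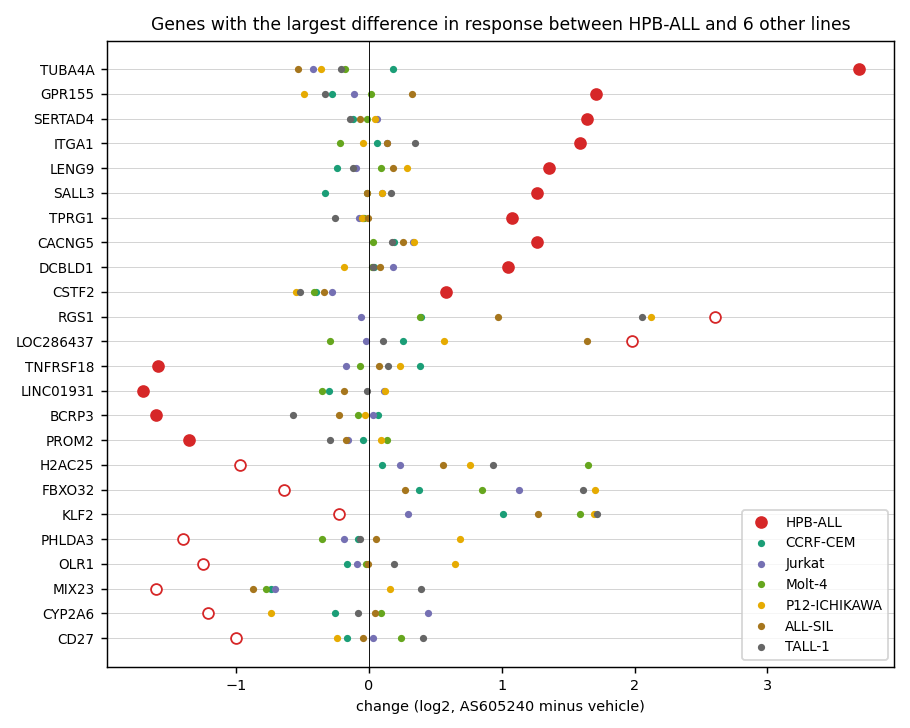
Change with AS605240, in log2(signal + 16) of the treated minus the Control array, of the named genes with the largest differences in response, in HPB-ALL (large circles, filled where the difference was called and open where it was not) and in each of the other 6 lines (small points). The HPB-ALL points of TUBA4A, at 3.69, and SERTAD4, at 1.64, stand apart from the other lines, whose points for these genes lie between -0.53 and 0.18.

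SERTAD4 and its antisense gene SERTAD4-AS1 were both expressed in HPB-ALL alone and were both higher on the treated array. SERTAD4, a member of the SERTA domain family, was at 9.45 with AS605240 and 7.80 with vehicle, against 4.18 to 4.56 on the other arrays. Its change of 1.64, against -0.14 to 0.06 in the other lines, gave a difference of 1.68. SERTAD4-AS1 was at 11.32 and 10.09, against 4.47 to 5.20, and its change of 1.23, against -0.33 to 0.41, was not called (adjusted p = 0.10). The other lines were near the floor of the scale for both genes, where a change can hardly be seen and the spread is small, and SERTAD4 passed the signal filter through HPB-ALL alone. The call of SERTAD4 in limma therefore adds little to the levels themselves, and it was lost with an offset of 4. Further probe sets of SERTAD4 changed by 1.48 and 1.43 in HPB-ALL, and a dim one by -0.53. The genes overlap on opposite strands, so their signals are not certain to be separate.

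The promoters of this pair are shown because the genes move together and start close to each other. In RefSeq (GRCh38.p14) the starts are 1089 bases apart on chromosome 1, and the first SERTAD4 start lies inside the antisense gene. The windows run 250 bases upstream to 50 bases downstream of the start, 5′ to 3′ on the strand of the gene, at chr1:210232546-210232845 on the plus strand for SERTAD4 and at chr1:210233836-210234135 on the minus strand for SERTAD4-AS1. Capitals mark GTAAACA, the core letters of forkhead (FOXO) binding, searched on both strands and chosen after the sequences had been seen.
SERTAD4: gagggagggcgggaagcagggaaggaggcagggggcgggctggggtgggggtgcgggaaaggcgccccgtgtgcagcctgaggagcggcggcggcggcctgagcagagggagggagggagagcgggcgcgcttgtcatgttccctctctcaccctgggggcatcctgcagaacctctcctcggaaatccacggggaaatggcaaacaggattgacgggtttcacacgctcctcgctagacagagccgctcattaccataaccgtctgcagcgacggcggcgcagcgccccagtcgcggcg
SERTAD4-AS1: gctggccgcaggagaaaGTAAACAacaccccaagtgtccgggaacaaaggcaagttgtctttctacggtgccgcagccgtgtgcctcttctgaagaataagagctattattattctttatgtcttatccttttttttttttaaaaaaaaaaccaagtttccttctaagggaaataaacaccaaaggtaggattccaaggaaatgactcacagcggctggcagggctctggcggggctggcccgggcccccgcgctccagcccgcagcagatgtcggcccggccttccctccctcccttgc
The SERTAD4 window had no match, and the SERTAD4-AS1 window had 1, which began 233 bases before the start on the printed strand. The letters occur in 1202 of 35116 RefSeq promoter windows of this length (3.42%), so a match in a single window is a description of its letters only. Among the named genes with a higher response, 8 had windows, and none of the 9 windows held the letters.

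The other genes called higher in response had differences of 0.99 to 1.85. GPR155, a cholesterol-sensing protein of the lysosome, was at 7.54 with AS605240 and 5.83 with vehicle, a change of 1.71, against -0.49 to 0.33 (difference 1.85, adjusted p = 0.011, limma), and its other probe sets changed by 0.68 and 0.55. ITGA1, the alpha 1 integrin that binds collagen, was at 6.26 and 4.67, a change of 1.59, against -0.22 to 0.35. TPRG1 was at 10.16 and 9.08, a change of 1.08, against -0.25 to -0.01, and like SERTAD4 it was near the floor in the other lines, at 4.59 to 4.93. CSTF2, a subunit of the mRNA cleavage stimulation factor, was lower in HPB-ALL than in every other line, at 6.05 and 5.48 against 7.11 to 8.26, and its change of 0.58 lay above -0.54 to -0.27. LENG9, SALL3, CACNG5 and DCBLD1 had differences of 1.02 to 1.34 at levels of 4.16 to 6.85. All 4 were dim genes on the HPB-ALL arrays. The other DCBLD1 probe set with a signal over 50 on at least 2 arrays changed by 0.16, inside -0.08 to 0.24, and its level in HPB-ALL was above all other arrays, where that of the probe set used was below.

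Lower in response were TNFRSF18, LINC01931, BCRP3 and PROM2. TNFRSF18, the T-cell co-stimulatory receptor GITR, was at 6.18 with AS605240 and 7.77 with vehicle, a change of -1.59, against -0.17 to 0.39 in the other lines (difference -1.69, SE 0.20, adjusted p = 0.0050, limma). Its vehicle array was above all other arrays, which were at 5.45 to 6.56, and its treated array lay within them. A dimmer TNFRSF18 probe set, however, changed by 0.12. PROM2, a membrane protein of epithelial protrusions, changed by -1.35, against -0.29 to 0.14, and its other 4 probe sets by -0.44 to 0.10. BCRP3 is a pseudogene, and its other probe set changed by 0.27. LINC01931 changed by -1.70, against -0.35 to 0.12. For TNFRSF18, PROM2 and BCRP3 the other probe sets thus did not repeat the size of the change.

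Another 10 named genes changed in HPB-ALL outside the range of the other lines by large amounts without a called difference, and among them were RGS1, LOC286437, PHLDA3, OLR1, MIX23, CYP2A6 and CD27. RGS1, a brake on G protein signaling from chemokine receptors, was at 8.24 with AS605240 and 5.64 with vehicle in HPB-ALL, a change of 2.61, against changes of -0.06 to 2.12 (median 0.69) in the other lines. It was thus higher on the treated array in every line except Jurkat and by the widest margin in HPB-ALL, and its difference of 1.63 had an adjusted p of 0.73 in limma. PHLDA3, a p53 target that competes with AKT for membrane lipids, changed by -1.40, against -0.35 to 0.69, and CD27, a co-stimulatory receptor of T cells, by -1.0, against -0.24 to 0.41.

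The remaining called genes, 14 higher and 3 lower, had a signal over 50 on at most 1 array, so they were left out of the named genes, and those given here were chosen after their values had been seen. DPP6, a regulator of potassium channels in neurons, was at 12.09 with AS605240 and 4.88 with vehicle in HPB-ALL, against 4.38 to 5.07 on the other arrays, a change of 7.21, but its other probe sets changed by 0.01 and 0.19. ASB2, a ubiquitin ligase subunit, was at 10.35 and 4.78, and its other probe set changed by -0.07. DMGDH, a mitochondrial enzyme of choline breakdown, was at 9.15 and 4.58, and its other probe set changed by -0.13. These jumps were thus seen in 1 probe set on 1 array. CR1, the complement receptor CD35, differed from them: it was at 8.10 and 5.36, against 4.76 to 5.26, and all 5 of its probe sets were higher on the treated array, by 0.48 to 2.74. The difference in response of CR1 was 2.71, with the other lines near the floor.

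The genes that distinguish HPB-ALL were also examined for their response. Of the 93 genes called higher in HPB-ALL, 76 were higher on its treated array than on its Control array and 17 lower, with a median change of 0.28. Of all 19775 genes, 11298 were higher on the treated array of HPB-ALL and 8477 lower. Among the genes called higher, GADD45G, a growth arrest gene, was at 10.23 with AS605240 and 9.30 with vehicle, and NFKBIZ and PLEK changed by 0.81 and 0.49. These genes had been chosen for their high level in HPB-ALL, and many, such as TLX3, SERTAD4 and CX3CR1, were near the floor in the other lines, so their changes were not set against those of the other lines. The 222 genes over 4-fold higher in HPB-ALL with no overlap had a median change of 0.19, and the corresponding 144 genes of ALL-SIL had 0.17 in ALL-SIL, whereas those of CCRF-CEM, Jurkat and Molt-4 had -0.03, 0.00 and 0.04 in their own lines. Among the 99 genes called lower the median change in HPB-ALL was 0.07. Of these genes, 72 were higher on the treated array and 27 lower. TLX3 and CDKN2A changed by 0.13 and 0.02.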

How the data were processed

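For each of 54675 probe sets on 14 HG-U133 Plus 2.0 arrays, the value deposited by the authors was a signal intensity on a linear scale. The study's methods describe a summary by iterPLIER followed by log2 after addition of 16. The submitters' processing notes name PLIER and Affymetrix Expression Console 1.3.1.187, and how the arrays were normalized against each other is not given in the sources used. An offset of 16 and log2 were therefore applied here to the deposited intensity values, with no further normalization.

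Control probe sets (62), probe sets naming several genes (1801) and those with no gene name (11721) were left out, and the brightest of the 41091 single-gene probe sets of each gene was kept. Symbols came from the platform annotation and were updated through the gene ID for 41043 probe sets. This gave 19775 genes, of which 10875 had a signal over 50 on at least 2 of 14 arrays. Another 35 of these genes were tested but are not reported here, and none of them was called.

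Tests used lmFit and eBayes of limma 3.58.1 in R 4.3.3, adjusted by Benjamini and Hochberg over all genes. HPB-ALL identity was the mean of its arrays against the means of the other 6 lines. The response difference was the change of HPB-ALL against the changes of the other 6 lines, paired within each line, since a line's AS605240 and Control arrays share that line's cells, with the line as a block. Residual degrees of freedom came from the other lines (5 of them), and precision is limited by the number of arrays. All fits were tested on simulated data.

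Genes were named by a rule: for identity, the 15 genes called higher and the 15 called lower with the largest differences among those over a signal of 50 on 2 arrays with both HPB-ALL arrays outside all others; for response, up to 12 in each direction chosen likewise, places left over being filled by genes not called (2 higher and 8 lower); genes called in the other lines that moved the opposite way in HPB-ALL; and up to 3 per list. The cell line, the 32 gene lists and the rule were chosen with earlier results of these data known, and the lists were described by counts and medians only. The alternatives were quantile normalization, centring on the median, an offset of 4 or 64, bright genes alone, the mean of all probe sets, a variance trend, arrays of 1 treatment alone, each other line left out, P12-ICHIKAWA and TALL-1 as 1 line, and no cell line block.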

Additional observations from a re-analysis of the deposited data

Results flagged for a closer look

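The response of HPB-ALL differed from that of the other lines, by the test of the difference itself, in 31 genes, of which 14 had a signal over 50 on at least 2 arrays. The log2 differences of these 14, HPB-ALL minus the mean of the other lines, were 3.94 for TUBA4A, 1.853 for GPR155, 1.682 for SERTAD4, 1.522 for ITGA1, 1.341 for LENG9, 1.268 for SALL3, 1.155 for TPRG1, 1.044 for CACNG5, 1.022 for DCBLD1 and 0.9921 for CSTF2. In the other direction they were -1.689 for TNFRSF18, -1.596 for LINC01931, -1.47 for BCRP3 and -1.28 for PROM2. Of the 17 with such a signal on at most 1 array, the differences named were 7.214 for DPP6, 5.643 for ASB2, 4.643 for DMGDH and 2.706 for CR1. Each rests on 1 pair of HPB-ALL arrays.

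Among the other 6 lines, 72 sets of values were examined for a line far from the rest, and 11 had one, where chance gives about 1 in 20. The value given is the gap to the nearest line as a share of the whole range. In levels, ALL-SIL was lowest for TFDP1 (9.809, share 0.7002) and NMRAL1 (8.423, share 0.6635), Jurkat for PPDPF (9.205, share 0.8856) and Molt-4 for SLA2 (8.031, share 0.6572), and HPB-ALL was far below each of them. In changes, CCRF-CEM was lowest for SALL3 (-0.33, share 0.6301) and CD84 (0.23, share 0.7439), TALL-1 for TPRG1 (-0.25, share 0.7224) and ALL-SIL for PDK2 (-0.19, share 0.8123). In counts of genes, ALL-SIL had 234 genes over 4-fold lower without overlap, against 134 in HPB-ALL (share 0.7397). Molt-4 had 13 genes that changed by over 1 above all other lines, against 18 in HPB-ALL (share 0.7778), and CCRF-CEM had 18 below all other lines, against 9 in HPB-ALL (share 0.8125).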

How the results depend on the processing

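No difference changed sign under any alternative for the 30 named identity genes, the 14 called response genes or the 22 other named response genes. Stretches were not recomputed, and medians of lists and of whole chromosomes under the alternatives are not reported here. The balance of identity calls, 93 higher and 99 lower, turned with the setting, between 71 and 92 with an offset of 4 and 108 and 62 with an offset of 64, and was 120 and 79 without CCRF-CEM. With an offset of 4, 551 genes were over 4-fold apart without overlap (356 as reported), 12 response differences were called (8 higher, 4 lower; 31 as reported), 126 changes lay over 1 outside the other lines (27 as reported), and 549 genes were called in the other lines (352 as reported). With an offset of 64 the values were 157 genes apart, 62 called lower in identity, 3 called lower in response, 11 changes outside, 136 genes called in the other lines and 99.26% in the same direction in HPB-ALL. Bright genes alone gave 14 response differences (10 higher, 4 lower) and 15 changes outside. The mean of all probe sets gave 236 genes apart, 11 response differences (9 higher, 2 lower), 12 changes outside, 209 genes called in the other lines and 97.61% in the same direction. The cause of these shifts was not tested. Leaving out each other line in turn, 115 to 261 genes were called in identity, 45 to 130 of them lower, and 15 to 25 were higher in response. Identity calls fell to 115 (45 lower) without P12-ICHIKAWA and to 120 (45 lower) without TALL-1, and response calls to 15 higher without Jurkat. With P12-ICHIKAWA and TALL-1 as 1 line, 120 genes were called in identity, 46 of them lower, and 12 were lower in response. Without the cell line block that pairs the arrays, 4 response differences were called, 4 higher and 0 lower. Without this block, 3 genes were called in the other lines, and 100% moved the same way in HPB-ALL. Over the 30 named identity genes, 462 of 480 repeats kept the call, and the 18 that lost it came from 5 genes, NRN1, MSH6, TMEM106B, ABCG1 and NMRAL1. Over the 14 called response genes, 147 of 210 repeats kept the call, and all 14 lost it at least once. SERTAD4 lost it only with the offset of 4, and TUBA4A only without the block. In contrast, CACNG5 and CSTF2 each lost it in 11 of 15 settings and DCBLD1 in 8. Dim signals limit what can be seen: the offset weighs more the dimmer a gene is, and below a signal of 16 it exceeds the signal itself.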
